A study of Mus musculus with 4 samples.

Results

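The genes around Rela on mouse chromosome 19 were compared between ears whose keratinocytes had been targeted for deletion of RelA and ears that had not. Members were all array spots, other than control spots, whose probe lies between 3 and 10.6 Mb on chromosome 19 of mouse build mm9. Rela itself, Bad, Fosl1, Snhg1 and genes whose names start with Gstp, Nduf, Cox8, Rpl or Rps were left out. This gave 469 spots of 424 probes and 302 genes, out of 59305 spots of 55681 probes and 34787 genes on the array. A gene was tested if a probe of it was well above background on each array of 1 group or of both, which held for 254 of the 302 genes and for 23629 genes of the whole array. The other 48 were not tested. The 16 spots left out by name belonged to 11 names. They included the kinase genes Rps6ka4 and Rps6kb2, which the prefix Rps removes with the ribosomal proteins. Gstp3 stayed, because the array files call it by an older clone name.

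RNA from whole ears was hybridised to 4 one-colour mouse expression arrays, 1 per mouse, 48 h after the ears had received 2,4-dinitrofluorobenzene (DNFB), a contact allergen that inflames skin. The 2 mice labelled wild type carried the floxed RelA allele without Cre (RelAfl/fl), and the 2 mutant mice, labelled RelAE-MUT, carried it with Cre under the keratin 14 promoter (K14Cre RelAfl/fl). Both groups therefore carried the floxed allele and both received DNFB, and neither untreated ears nor mice without the floxed allele were analysed here. The strain and ages of the mice are not given in the sources used here, and the labels do not say whether the mice were littermates.

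RelA, also called p65, is a subunit of the transcription factor NF-kB, which is released into the nucleus by inflammatory signals and switches on cytokine, chemokine and survival genes. The keratin 14 promoter is active in the basal layer of the epidermis and of hair follicles. A deletion made there passes to the cells that descend from it, and ear cells of other descent keep an intact allele. A gene changed in a mouse by targeting in stem cells is passed on with the chromosome around it. When the donor of the stem cells and the breeding strain differ, flanking genes can differ between carriers and non-carriers of the allele. Here the allele was shared by both groups, and the segment is gene-dense, holding housekeeping genes, leukocyte genes, epidermal genes and the nuclear noncoding RNAs Malat1 and Neat1.

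Malat1 is one of the members whose probes overlap each other, and 2 probes that the results turn on are shown first. Capitals mark the 21 bases that the Malat1 probe and a probe of an unnamed transcript have in common, and a second probe, named NEAT2 after an older symbol of Malat1, has the identical sequence to the Malat1 probe. The probes lie on chromosome 19 of mm9 at 5795713 to 5795772 and at 5795752 to 5795811, and the files list their coordinates from high to low.
Malat1: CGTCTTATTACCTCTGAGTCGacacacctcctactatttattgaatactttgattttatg
unnamed transcript: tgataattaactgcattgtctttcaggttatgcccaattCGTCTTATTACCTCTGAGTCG

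The probes of Aldh3b1 and Fermt3, which had the smallest unadjusted p among members with a full symbol, and of Ovol1, the member with an unadjusted p under 0.05 that lies nearest to Rela, are printed because the results come back to them, and have no capitals. The Aldh3b1 probe lies at 3913493 to 3913552 and the Ovol1 probe at 5549209 to 5549268. The Fermt3 probe, of 60 bases, is placed at 7074257 to 7076292, a span of 2036 genomic bases.
Aldh3b1: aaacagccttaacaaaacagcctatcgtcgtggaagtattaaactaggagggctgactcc
Fermt3: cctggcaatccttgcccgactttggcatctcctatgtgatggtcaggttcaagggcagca
Ovol1: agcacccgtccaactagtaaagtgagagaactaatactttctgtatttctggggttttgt

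All levels are log2 of the processed intensity minus the 75th percentile of the array, so a level of 0 is the brightness of the upper quartile of spots. Levels of different probes are not comparable. Differences are mutant minus wild type, given as the log2 fold change ± limma's moderated standard error, with 2 mice per group. Each gene is represented by its brightest tested probe. Between 61.21% and 64.27% of the spots of an array were well above background, 0 were saturated, and Pearson's r between arrays, across genes, was 0.9827 to 0.9931. One corner of the array of mutant mouse 2, of rows 1 to 128 from column 139 onwards, held blocks of dark spots. The array of wild-type mouse 2 had nearly as many dark spots (96), with 4 dark blocks outside that corner, and no member was darker there by 2 log2 units than the median of the other mice. The corner contained a spot of 15 of the 254 tested members, and the spot of Rela. Of the 254, 248 were well above background on all 4 arrays. All 6 keratinocyte and 4 fibroblast markers looked at were measured, and 2 of 3 cartilage markers.

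None of the 254 genes near Rela differed between the groups after adjustment. With limma and Benjamini-Hochberg adjustment over all genes, 0 of 254 passed an adjusted p of 0.05, and the smallest adjusted p among them was 0.565. Over all genes, 4 of 23629 (0.0169%) passed. At an unadjusted p under 0.05 there were 13 members (5.12%), 5 higher and 8 lower in the mutants, beside 6.51% of all genes, with 2.96% higher and 3.55% lower. The share was thus near the background and below it. No member had an unadjusted p under 0.001, and 61 of all genes had.

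The count of 13 was 8 after centring on the array median and 8 when wild-type mouse 1, mutant mouse 1 or mutant mouse 2 was left out. In these cases 3.15% of members passed, beside 6.1%, 4.87%, 7.91% and 6.17% of all genes in the same order. Leaving out wild-type mouse 2, the count was 16 (6.3% of members, beside 7.91% of all genes).

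The segment as a whole did not lean one way. The median log2 fold change of its genes was 0.00034, beside 0.014 over all genes, with 127 members above 0 and 127 below. The 25th and 75th percentiles of the members were -0.09 and 0.11. In 100 members (39.4%) the values of both mutants lay on one side of those of both wild-type mice, 46 higher and 54 lower, beside 36.3% of all genes, with 18.9% higher and 17.4% lower. A difference of at least 1.5-fold was seen in 5 members (1.97%), beside 4.99% of all genes. Those 5 were Gstp3, Majin, Slc22a6 and the transcripts A_55_P2048957 and A_55_P1985344, with differences below 0 in 4 of them. The unadjusted p was 0.0481 for Gstp3 and over 0.05 for the others. A_55_P2048957 was above background in the mutants only. With its wild-type values raised to at least the dimmest level above background, its difference was at least 1.47-fold, under the 1.5 counted. Slc22a6 and A_55_P1985344 were above background on 3 arrays and were tested through the wild-type group, where their mean was higher.

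Brightness is one way in which members differ from the average gene. The median level of the members was 0.60 and that of all genes -0.34. Among genes with a mean level under -3, 11.4% of 35 members and 13.3% of all genes had an unadjusted p under 0.05. Between -3 and 0, the shares were 3.03% of 66 members and 6.49% of all genes. Between 0 and 3, they were 6.86% of 102 members and 3.76% of all genes, and above 3 they were 0% of 51 members and 2.22% of all genes. The members lay below all genes in some brightness classes and above them in another.

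**Figure D1:**
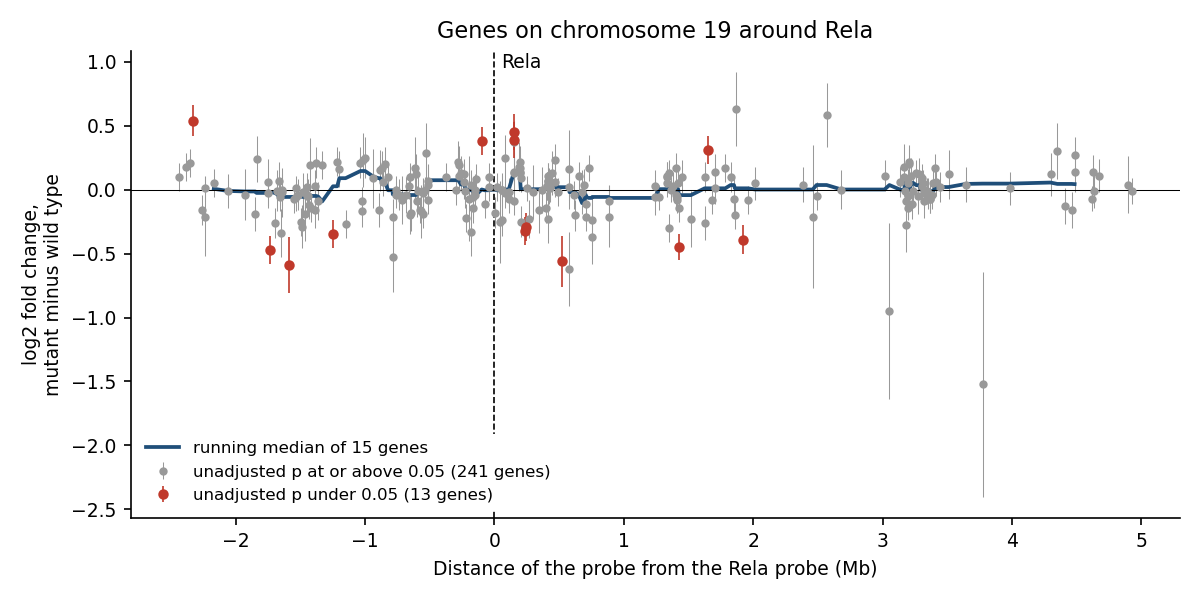
Each point is 1 of the 254 tested genes, at the distance of its probe from the Rela probe (horizontal axis, Mb) and its fold change on the log2 scale (mutant minus wild type), with the standard error as a bar. Red points are the 13 genes with an unadjusted p under 0.05. The blue line, the running median of 15 genes, stays between -0.11 and 0.15.

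No class of distance from Rela had a median fold change far from 0. Within 0.5 Mb of Rela, 5 of 66 genes had an unadjusted p under 0.05 (7.58%, median 0.02), and between 0.5 and 1 Mb 1 of 49 had (2.04%, median -0.03). Between 1 and 2.5 Mb it was 7 of 86 (8.14%, median -0.02), and beyond 2.5 Mb 0 of 53 (median 0.02). Each of these counts rests on few genes, and the differences between the distance classes were not tested. The 11 tested members of the Malat1 and Neat1 locus, 10 of them above 0, lie in the nearest class. Its 5 genes with an unadjusted p under 0.05 include Malat1 and the unnamed transcript whose probe overlaps it, which are not independent measurements. Over all genes, 6.51% had such a p. On the side of lower coordinates 5 of 105 genes had such a p and on the side of higher coordinates 8 of 149.

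The running median of 15 neighbouring genes lay between -0.11 and 0.15 in the segment. Outside it, over 22830 windows of 15 genes, the 5th and 95th percentiles were -0.10 and 0.12. Of the 240 overlapping windows of the segment, 16 lay beyond these percentiles (6.67%). By construction, 5% of the windows outside lie below the lower percentile and 5% above the upper. The highest value in the segment, 0.15, lay in windows centred from 4.61 to 4.65 Mb. At the Malat1 and Neat1 locus the running median reached 0.14. The 11 tested members of the Malat1 and Neat1 locus share transcripts and in part bases, so they are not independent measurements. Of their values 10 lay above 0, and the mutants were wholly higher in 8 and wholly lower in 1. Over all genes, the mutants were wholly higher in 18.9% and wholly lower in 17.4%.

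The rest of chromosome 19 had 32 of 477 genes with an unadjusted p under 0.05 (6.71%), with a median of 0.03. In 2 segments of other chromosomes the share was higher, at 25 of 178 genes (14%) on chromosome 4 from 127 to 135 Mb and 43 of 309 (13.9%) on chromosome 11 from 58 to 71 Mb. These segments were picked on this same comparison, so that their shares describe the choice and are no test against the Rela segment.

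**Figure D2:**
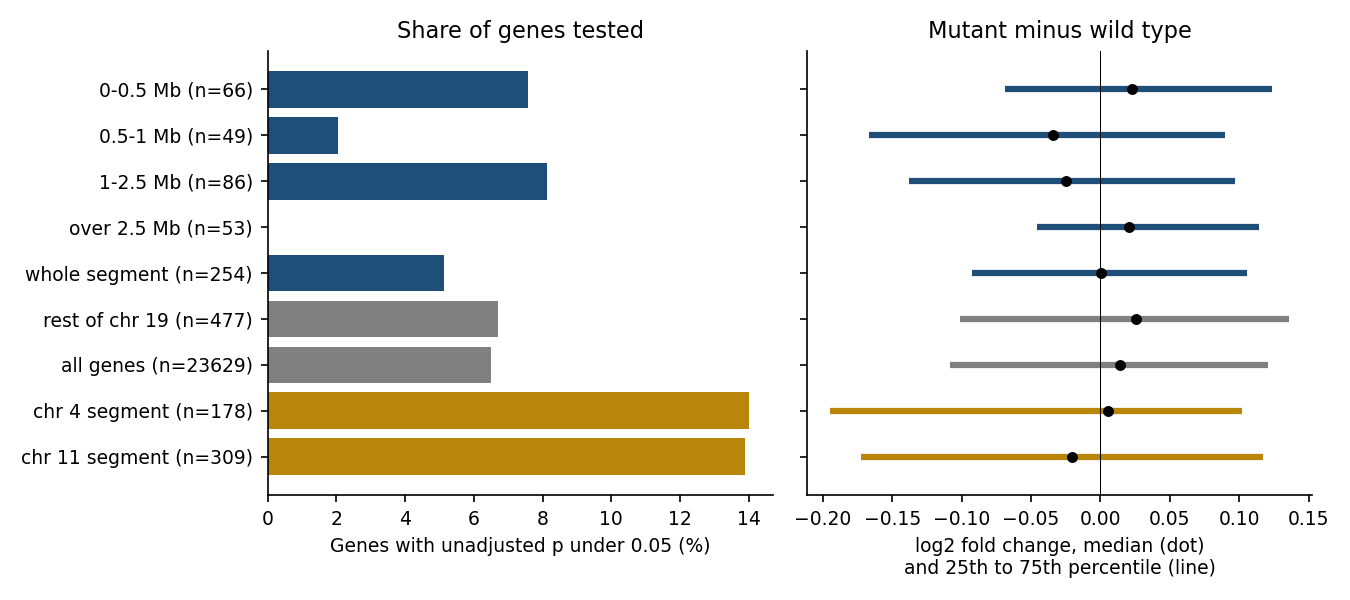
Left, the share of tested genes with an unadjusted p under 0.05 (%); right, the median log2 fold change (dot) and its 25th to 75th percentile (line). Blue stands for distance classes from Rela and the whole segment, grey for the rest of chromosome 19 and all genes, and ochre for the segments on chromosomes 4 and 11 that were picked on this comparison. The whole segment, at 5.12%, lies below all genes at 6.51%.

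The genes closest to Rela showed small differences. Sipa1, a GTPase-activating protein for Rap that is abundant in lymphocytes, lies 3.1 kb from the Rela probe. It read 2.59 and 2.39 in the wild-type mice and 2.33 and 2.29 in the mutants (-0.18 ± 0.12). Its groups did not overlap, but the gap between them is smaller than the range within the wild-type mice.

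The next genes on that side were Pcnx3 (16.6 kb, 0.02 ± 0.11), the transcript TC1601007 (41.0 kb, -0.25 ± 0.32), Map3k11 (54.4 kb, 0.00 ± 0.13), Kcnk7 (58.7 kb, 0.00 ± 0.11) and Ehbp1l1 (60.1 kb, -0.24 ± 0.12). Map3k11 is a kinase upstream of JNK, Kcnk7 a potassium channel subunit and Ehbp1l1 a protein of membrane traffic. Ehbp1l1 read 2.47 and 2.42 against 2.32 and 2.10, lower in both mutants, with an adjusted p above the threshold.

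On the other side, Kat5, the acetyltransferase Tip60, was 45.1 kb away (0.02 ± 0.11) and Rnaseh2c, a subunit of a nuclease that removes ribonucleotides from DNA, 45.2 kb away (0.10 ± 0.11). Beyond them came Ap5b1, an adaptor protein subunit (76.9 kb, -0.11 ± 0.11), Ovol1 (98.9 kb), 1700020D05Rik (145.1 kb, 0.08 ± 0.12) and Snx32, a sorting nexin (152.7 kb, -0.04 ± 0.12). Ovol1 was the only one of these 12 with an unadjusted p under 0.05.

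Rela itself, not a member, read 4.48 and 4.60 in the wild-type mice and 4.59 and 4.72 in the mutants (0.11 ± 0.12, adjusted p = 0.887). Its spot lies in the dark corner of the array of mutant mouse 2, and the files do not say which part of the transcript the probe and the floxed part share. The value therefore does not check the labels.

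Among members with a full symbol, 9 had an unadjusted p under 0.05, and in all 9 the groups did not overlap. Since 0 members passed after adjustment, their values are given without a call, in the order of their roles. In none of the alternatives tried did the sign of these 9 turn.

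Among epidermal genes, Aldh3b1, an aldehyde dehydrogenase that clears aldehydes from lipid peroxidation, read 1.30 and 1.34 in the wild-type mice and 0.91 and 0.80 in the mutants. Both mutants lay below both wild-type mice (-0.47 ± 0.11, adjusted p = 0.574). Ovol1, a zinc finger repressor that helps keratinocytes leave the cell cycle and differentiate, read 1.17 and 1.20 in the wild-type mice and 1.48 and 1.64 in the mutants. Both mutants were higher (0.38 ± 0.11, adjusted p = 0.707).

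Among leukocyte genes, Fermt3, which encodes kindlin-3, an activator of integrins in blood cells, read 0.31 and 0.33 in the wild-type mice and -0.16 and -0.10 in the mutants. The mutants were lower by a difference many times the range within each group (-0.45 ± 0.10, adjusted p = 0.577). The only tested probe of Fermt3 has its spot in the dark corner of the array of mutant mouse 2. The gene therefore has no value with the corner left out. Over the 16 settings that kept it, including those with 1 mouse left out, its difference ran from -0.48 to -0.41. The part of the corner in its difference was not tested. Batf2, a leucine zipper factor induced by interferon, read 1.25 and 0.99 against 0.34 and 0.77 (-0.56 ± 0.20, adjusted p = 0.741). Its mutants were lower but far apart from each other.

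Among the other lower genes, Gstp3, a glutathione transferase of the pi class, read -1.53 and -1.94 in the wild-type mice and -2.53 and -2.11 in the mutants (-0.59 ± 0.22, adjusted p = 0.762). Slc25a45, a carrier of the mitochondrial family, read -0.52 and -0.51 against -0.76 and -0.91 (-0.32 ± 0.11, adjusted p = 0.753). Tigd3, a gene derived from a transposase, read -3.50 and -3.45 against -3.72 and -3.82 (-0.29 ± 0.11, adjusted p = 0.759). These genes were lower in both mutants, and the Tigd3 difference was -0.08 with normexp background correction.

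Among nuclear regulators, Naa40, an acetyltransferase of histone N termini, read -0.11 and -0.02 in the wild-type mice and 0.26 and 0.23 in the mutants, higher in both mutants (0.31 ± 0.11, adjusted p = 0.737). The noncoding RNA Malat1 read 2.15 and 2.43 against 2.69 and 2.79, also higher in both (0.45 ± 0.14, adjusted p = 0.712).

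The other 4 genes with an unadjusted p under 0.05 have clone or predicted names. TC1758295 was higher in both mutants (0.54 ± 0.12), and 9430078G10Rik (-0.35 ± 0.11) and AV313155 (-0.39 ± 0.11) were lower in both. All 3 had levels under -3 on all arrays. The last is the unnamed transcript whose probe overlaps that of Malat1 (0.39 ± 0.14), so that Malat1 and it are not independent measurements. With overlapping probes counted once, 11 of 248 members had an unadjusted p under 0.05.

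**Figure D3:**
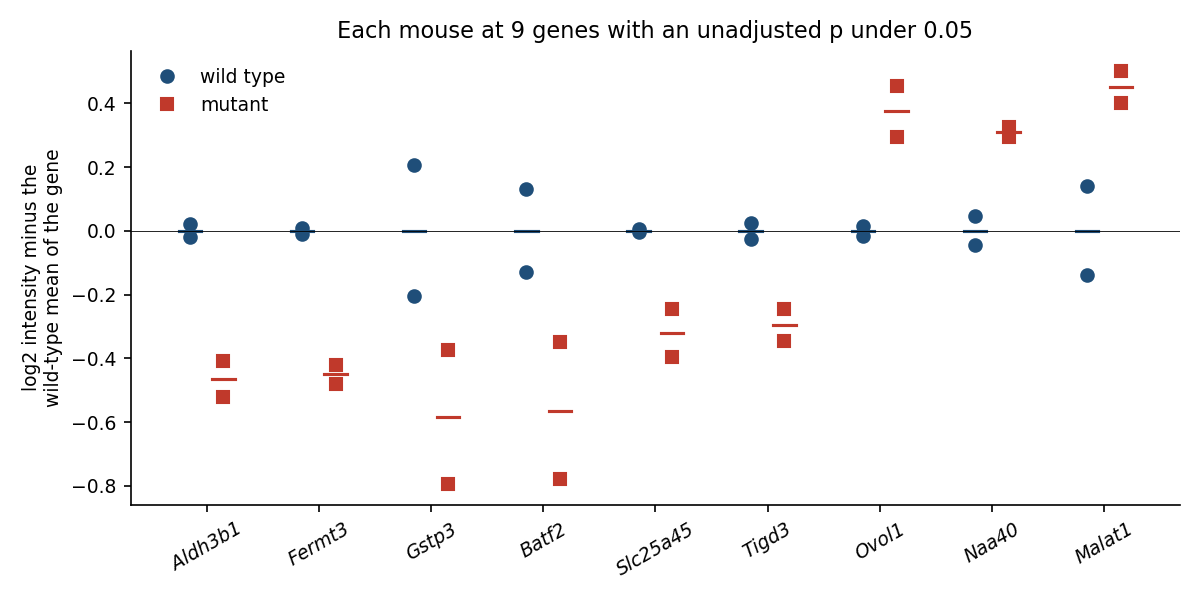
Log2 intensity of each mouse minus the wild-type mean of the gene, for the 9 members with a full symbol and an unadjusted p under 0.05. Blue circles are the 2 wild-type mice, red squares the 2 mutants, and short lines the group means. In each gene the groups do not overlap, and Gstp3 and Batf2 have the widest ranges within a group.

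The locus of Malat1 and Neat1 was covered by many probes. Malat1 is an abundant long noncoding RNA of nuclear speckles, and Neat1 is the scaffold of the nuclear bodies called paraspeckles. At the end of Malat1 where the coordinates are lowest, 4 overlapping or adjoining probes between 5795713 and 5795832 gave differences of 0.37 to 0.45, all higher in the mutants, and 3 of the 4 had an unadjusted p under 0.05. The 2 probes of identical sequence gave 0.45 ± 0.14 and 0.37 ± 0.17.

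Further along in the same orientation the differences were smaller. The 3 probes between 5798256 and 5798620 gave 0.10 to 0.15, and the 3 between 5802130 and 5802326 gave -0.09 to -0.05. Averaged over the probes of a stretch, the difference was 0.40 at the first, 0.13 at the second and -0.07 at the third. The difference between the first and the third stretch, taken within each mouse, was 0.47 higher in the mutants, and the groups did not overlap on it. This contrast was chosen after its values were seen and has no test; an exact permutation of 2 against 2 mice cannot go below a two-sided p of 0.333. Fewer cells carrying a transcript and less of it per cell cannot be told apart in whole ears, here or at any other gene.

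Neat1, 194.5 kb from the Rela probe, read 6.06 and 6.07 in the wild-type mice and 6.23 and 6.24 in the mutants (0.17 ± 0.10, adjusted p = 0.855). Its 6 overlapping or adjoining probes gave 0.13 to 0.20, all above 0 and none with an unadjusted p under 0.05. Of the 12 tested probes in the opposite orientation around Neat1, the differences ran from -0.06 to 0.35. The 3 probes in the opposite orientation near Malat1 gave 0.13 to 0.24. A further 3 probes in the orientation of Malat1, between 5834543 and 5834916, gave 0.10 to 0.18. Malat1 and Neat1 are the 2 members of the list of nuclear noncoding RNAs, and both were above 0.

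**Figure D4:**
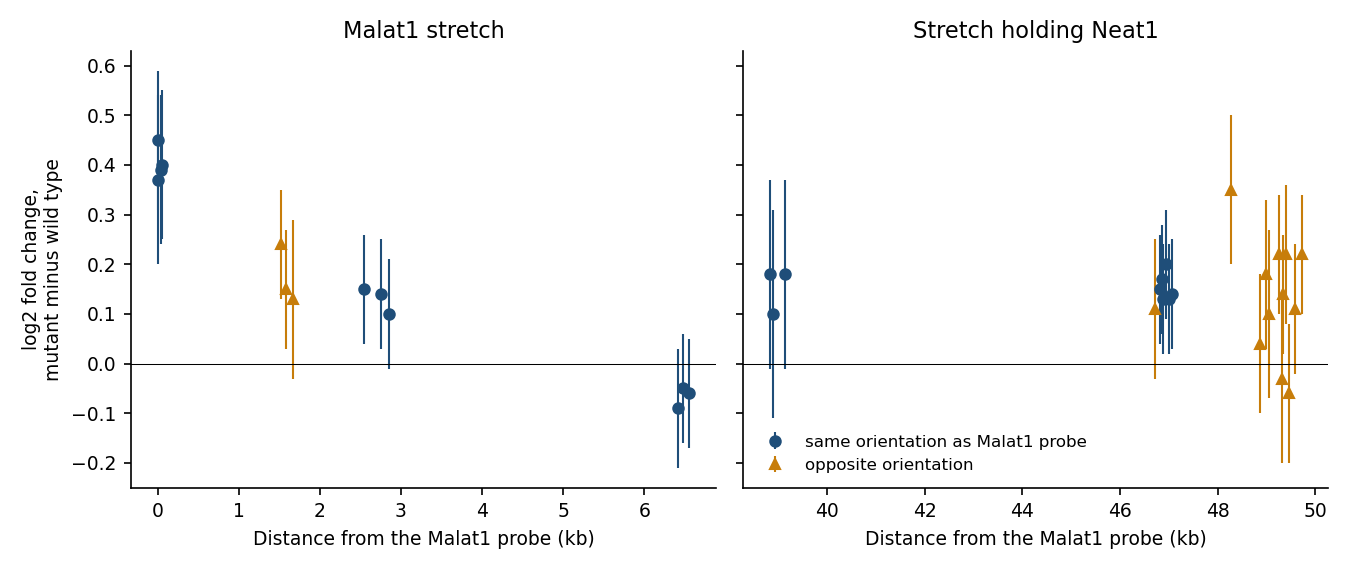
Log2 fold change, mutant minus wild type, with its standard error, of tested probes of the Malat1 and Neat1 locus against the distance from the Malat1 probe (kb). Circles are probes in the orientation of the Malat1 probe and triangles those in the opposite one. The 4 probes at the left edge lie at 0.37 to 0.45 and the last 3 probes of the left panel at -0.09 to -0.05.

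Described by role, none of the lists given here held a gene past the adjusted threshold. Over all genes, for comparison, 12645 values lay above 0 and 10984 below. The lists overlap in a few genes, such as Map4k2, and are described by counts without a test.

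Of 13 tested leukocyte genes, 11 had values below 0 and 2 above, with a median of -0.21, and 2 lower ones, Batf2 and Fermt3, had an unadjusted p under 0.05. In 7 the mutants lay wholly below and in 1 wholly above the wild-type mice, beside 17.4% and 18.9% of all genes. Unc93b1, which carries nucleic acid sensing Toll-like receptors to endosomes, read 3.30 and 3.15 against 3.04 and 2.88 (-0.26 ± 0.12), lower in both mutants. Ccdc88b, a regulator of myeloid and T cell function, read 2.73 and 2.68 against 2.65 and 2.63 (-0.06 ± 0.10). Ppp1r14b, a phosphatase inhibitor, went the other way (0.17 ± 0.12).

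Ptprcap, a partner of the phosphatase CD45, gave -0.29 ± 0.17 and Ctsw, a protease of cytotoxic lymphocytes, -0.33 ± 0.19, each with 1 mutant near the level of the lower wild-type mouse. The median of the list lay between -0.22 and -0.19 under the other scalings and between -0.34 and -0.11 over all settings. Summed marker signals of blood cells are given beside this list. The summed linear signal of 3 tested T cell markers was 9.21 and 7.52 in the wild-type mice and 7.08 and 7.78 in the mutants, and all 3 had values below 0. For the 3 cytotoxic lymphocyte markers it was 8.79 and 8.35 against 6.3 and 7.43, and for the 3 tested macrophage markers 59.8 and 56.5 against 54 and 48.7. The 3 tested B cell markers summed to 0.698 and 0.728 against 0.555 and 0.612, with 3 of 3 below 0, and the 3 red blood cell markers to 116 and 47.2 against 56.9 and 38.3. The 3 mast cell markers summed to 33.9 and 28.9 against 32 and 33.5. For the 4 neutrophil markers it was 128 and 133 against 126 and 122, with 2 of 4 below 0. The brightest probe weighs most in such a sum, and here it was that of Csf3r (-0.08 ± 0.10). Trac, of the T cell list, and Ms4a1, of the B cell list, were not tested. The part of these cells in the leukocyte values was not tested.

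Of 12 tested epidermal and epithelial genes, 6 had values above 0 and 6 below, with a median of 0.01. Without mutant mouse 1 there were 10 above and 2 below (median 0.10), and without mutant mouse 2 there were 3 above and 9 below (median -0.07). Cst6, the cystatin E/M that guards cornification proteases, read 7.54 and 7.75 against 7.63 and 7.64 (0.00 ± 0.12). Ahnak, a giant scaffold protein, gave 0.02 ± 0.12 at its brightest probe, which has a spot in the dark corner. Its 4 tested probes ran from -0.22 to 0.02, and its value over the alternatives from -0.12 to 0.10. Aldh3b2 gave 0.07 ± 0.15, and its neighbour Aldh3b3 -0.01 and 0.68 at its 2 probes. The 6 keratinocyte markers summed to 1.33e+03 and 1.45e+03 in the wild-type mice and 1.37e+03 and 1.48e+03 in the mutants, so the groups overlapped.

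The genes of RNA processing and translation leaned upward by small amounts. Of 15 tested, 14 had values above 0 and 1, Ints5, below, with a median of 0.11. The mutants lay wholly above the wild-type mice in 7 and wholly below in 0, beside 18.9% and 17.4% of all genes, but none had an unadjusted p under 0.05. Fau, a ribosomal protein fused to a ubiquitin-like one, read 8.15 and 8.23 against 8.31 and 8.28 (0.11 ± 0.10). Eef1g, an elongation factor subunit, read 6.49 and 6.59 against 6.72 and 6.69 (0.17 ± 0.11), and Eif1ad gave 0.19 ± 0.15. The median lay between 0.09 and 0.12 under the other scalings and 0.08 and 0.13 over all settings. Bright genes leaned the same way over the whole array. Of all genes with a mean level over 3, 2522 of 3778 had values above 0, with a median of 0.04, and in 908 the mutants lay wholly above.

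Of 15 chromatin and transcription genes 11 were above 0 and 4 below (median 0.10), with Drap1, a repressor of TATA-dependent transcription, at -0.01 ± 0.13 and Polr2g, an RNA polymerase II subunit, at 0.11 ± 0.14. Esrra, a nuclear receptor of energy metabolism, gave 0.11 ± 0.11. The median of this list was 0.02 without mutant mouse 1 (8 above 0, 7 below) and 0.04 or 0.15 when wild-type mouse 1 or 2 was left out. Of 11 genes of DNA replication, repair and cell division 7 were above 0 and 4 below (median 0.10). That direction turned without wild-type mouse 1 (5 above, 6 below, median -0.07), and without wild-type mouse 2 it was 9 above and 2 below (median 0.24). Incenp, of the chromosomal passenger complex, gave 0.12 ± 0.17, and the difference was 0.32 or -0.09 when wild-type mouse 2 or 1 was left out.

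Of 16 membrane traffic genes, 12 had values below 0 and 4 above, with a median of -0.04 and 6 genes in which the mutants lay wholly below (17.4% of all genes did). The median was -0.10 without mutant mouse 2 and -0.02 without mutant mouse 1. The brightest were Rab1b, a GTPase between endoplasmic reticulum and Golgi (-0.03 ± 0.11), Syvn1, a ubiquitin ligase that degrades misfolded proteins (0.03 ± 0.11), and the syntaxin Stx5a (-0.09 ± 0.11).

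Both skeletal muscle genes had values below 0. Actn3, the actinin of fast fibres, read 0.68 and 0.09 against 0.08 and -0.36 (-0.53 ± 0.27), and Pygm, muscle glycogen phosphorylase, at 1.64 and 1.19 against 1.21 and 0.88 (-0.37 ± 0.21). The values of wild-type mouse 1 were the highest in both genes. The 5 skeletal muscle markers outside the segment summed to 155 and 129 in the wild-type mice and 139 and 99.1 in the mutants, and 5 of 5 had values below 0. The part of muscle in the ear samples in these values was not tested.

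Mitochondrial genes (3 of 11 above 0, median -0.04), lipid metabolism genes (6 of 13, median -0.01), kinase and stress signalling genes (5 of 13, median -0.06) and neuronal and sensory genes (4 of 10, median 0.00) had medians near 0. Prdx5, a peroxiredoxin, gave 0.10 ± 0.12, Plaat3, a phospholipase of adipocytes and lens, 0.05 ± 0.13, and Fads3, of the fatty acid desaturase cluster, 0.27 ± 0.14. Fth1, the heavy chain of the iron store ferritin, read 7.58 and 7.63 against 7.63 and 7.33 (-0.13 ± 0.14). Of the 4 iron and redox genes 2 were above 0 (median 0.03). Of the 4 tested solute carriers 2 were above 0 (median -0.13), with 0 above without mutant mouse 1 and 3 above without mutant mouse 2. Slc3a2, the heavy chain of amino acid transporters, gave 0.06 ± 0.12.

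**Figure D5:**
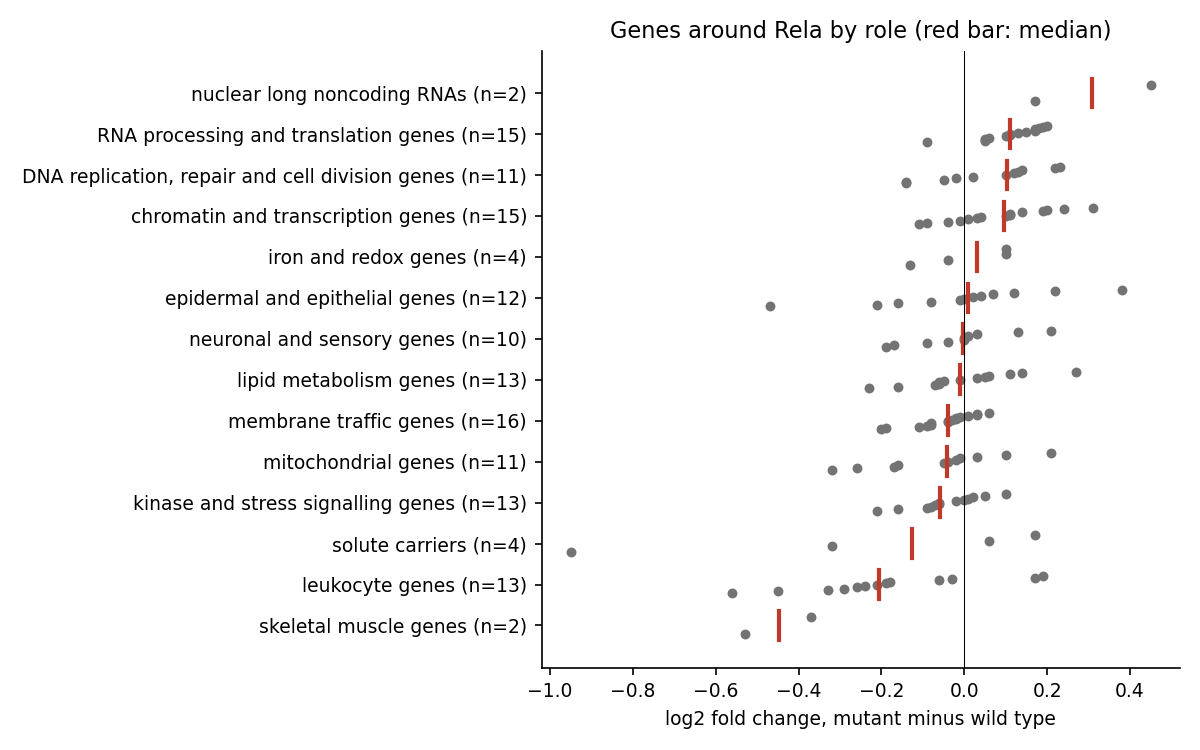
Log2 fold change, mutant minus wild type, of the tested members of each role list described, 1 grey point per gene, with the list's median as a red bar and the number of genes in brackets. The leukocyte list has 11 of 13 points below 0 and the RNA processing and translation list 14 of 15 above 0.

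The widest ranges between mice of a group came from dim probes. A_55_P1985344 read -4.56 and -4.65 in the wild-type mice and -7.44 and -4.82 in the mutants (-1.52 ± 0.88). It was -2.83 without mutant mouse 2, with an adjusted p of 0.189, the smallest of any member over all alternatives, and -0.21 without mutant mouse 1. Slc22a6, an organic anion transporter of the kidney, read -3.60 and -4.19 against -3.86 and -5.83 (-0.95 ± 0.69). Its low value is that of mutant mouse 2, whose spot lies in the dark corner, and without that mouse the difference was 0.03. The transcript 9530053H05Rik read -2.70 and -4.35 against -3.78 and -3.68, with the extremes in the wild-type group.

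Probes of the same gene differed by about as much as the members' median absolute log2 fold change, which was 0.102. Of 55 genes with at least 2 tested probes, 36 had the same sign at all probes, the median spread of the fold change was 0.09, and 3 genes had a spread over 0.5. Those were Aldh3b3 and 2 unnamed transcripts, which ran from -0.68 to -0.06 and from -0.37 to 0.20. At the distal edge of the segment, Sdhaf2, an assembly factor of succinate dehydrogenase, starts at 10576842 (-0.01 ± 0.10), and Cpsf7, an RNA cleavage factor just outside, at 10621823 (-0.02 ± 0.10).

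Promoters of the members were searched on both strands for the NF-kB consensus site, known as the kB motif, in RefSeq windows of 300 bases around the starts of genes (build GRCm38.p6). Of 154 tested members with such a window, 14 held it (9.09%). Of all 27025 genes with such a window, a set not limited to tested genes, 9.55% held it. Sipa1, Map4k2, Rasgrp2 and Ccdc88b of the leukocyte list were among the 14. The 14 had a median log2 fold change of -0.01. An unadjusted p under 0.05 was found in 0 of the 14 and in 8 of the other 140, beside 6.51% of all genes. A set of 14 is too small to set its count apart from that share. A match describes the letters of the window and is not a site of binding.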

How the data were processed

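RNA of 4 whole ears (100 ng each, per the labels) was hybridised to 4 arrays read in the same scan. The deposited processed intensities were made by the authors with Agilent Feature Extraction 10.7.3.1, per the file headers, with background subtracted and no scaling between arrays. The deposited raw mean and background intensities are uncorrected, and the deposited flags (score 0 or 1) mark spots above background or outlying, per the file headers. The authors' series table holds a linear ratio of processed intensity to the array median, found from the values.

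From the log2 intensity of a spot the array's 75th percentile (588.67 to 663.55 in intensity) was subtracted. Outlier spots were dropped and spots of a probe averaged. A probe was tested when well above background on each array of a group, and the brightest tested probe stood for its gene. Groups were compared with lmFit and eBayes of limma 3.58.1 (R 4.3.3), two-sided, with Benjamini-Hochberg adjustment over 23629 genes, after a check on simulated data. The number of arrays limits precision (median standard error 0.133), and the labels do not say that the mice are independent litters.

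Genes named are the full-symbol members with the largest change in each direction at an unadjusted p under 0.05 without overlap, the 6 nearest to Rela on each side, the brightest 3 of each role list, the 3 widest within a group, the 3 whose probes differ most and those at the distal edge. Others were chosen after their values were seen. Members and lists were chosen with earlier results of these data known. The alternatives changed background correction, scaling, the filter, the probe of a gene, the variance model, the replicate block, the corner and the mice. Without an mm9 genome, probes were not assigned to exons or introns. One probe of the Malat1 locus and 1 role list are not reported here.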

Additional observations from a re-analysis of the deposited data

How the results depend on the processing

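The count of members past the adjusted threshold was 0 under each of the 21 settings run. The count of 13 of 254 at an unadjusted p under 0.05 was 6 of 115 among genes within 1 Mb of Rela, a smaller set. Without the filter on dim probes it was 8 of 302 (2.65%, beside 5.06% of all genes). Over the 254 it was 8 after centring on the array median and 8 with the values of the series table, which are on that scale. Both were 3.15% of members, beside 6.1% of all genes. Leaving out 1 mouse at a time gave 8 to 16. The count of 100 of 254 members without overlap was 47 of 115 within 1 Mb, beside 36.3% of all genes. With 1 mouse left out it was 160 to 187 of 254, where a group of 1 overlaps less by construction. With 1 mouse left out the median log2 fold change was -0.0223 to 0.0197, and the lone mouse is assumed to vary like the others. Apart from construction, the cause of these changes was not tested. Of 1100 values of 65 named genes under alternatives, 1068 moved by less than their standard error and 32 by more, and no named gene at an unadjusted p under 0.05 changed sign.

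With the replicate number as a block the count at an unadjusted p under 0.05 was 11 (4.33% of members, beside 6.09% of all genes). It changed no call among the members. The labels share the numbers 1 and 2 between groups, and deviations of same-numbered mice correlated at -0.195. The crossed pairing, chosen after seeing the data, gave 10 (3.94% of members, beside 7.64% of all genes). Counting overlapping probes once (11 of 248) and applying the excluded names to current symbols (12 of 253) were also added after seeing the data.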
